A study of Mus musculus with 6 samples.

Results

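Genes of ribosome biogenesis, the nuclear work of transcribing, cutting, modifying and assembling ribosomal RNA (rRNA), were examined in regulatory T (Treg) cells that had been differentiated with or without sorafenib (Sora), a multikinase inhibitor used in liver cancer. The set held 53 genes of the 22939 in the deposited table. They were chosen by symbol as nucleolar and rRNA-processing factors and members of the RNA polymerase I machinery, and all 53 were found and passed the filter on low counts. RNA was sequenced from 3 control (ctrl-Treg) and 3 Sora-treated (Sora-Treg) libraries of mouse cells. In the study, naive CD4+ T cells of mice carrying GFP in the Foxp3 gene, on a C57BL/6J background, were activated with anti-CD3 and anti-CD28 antibodies, polarized with TGF-β1 and antibodies to IFN-γ and IL-4, and sorted for GFP. All of this was common to both groups, and Sora was added at the start of culture to one of them. The concentration and time for the sequenced cells, the vehicle, the animals' age and the number of animals are not given in the sources used here, so p-values measure the spread between these libraries, which may be technical.

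Total counts ranged from 30727686 to 37717324 per library, and no member had fewer than 608 counts in any library, so counting error was small for each of them. Values are given as CPM, counts scaled to one library size with TMM factors. Such a share of a library cannot tell fewer cells of a type from less RNA per cell. Foxp3 was present in all 6 libraries, at 269, 254 and 252 CPM (ctrl-Treg) against 278, 268 and 271 CPM (Sora-Treg). Of 6 Treg and T cell markers, 5 rose, none fell and none was at 0, with a summed level of 3605 to 3657 CPM in ctrl-Treg and 6301 to 6431 CPM in Sora-Treg libraries. Of 7 myeloid marker genes, 5 fell and none was at 0, and their summed level was 93.5, 93.0 and 24.9 CPM in controls 1 to 3 and 22.3, 42.9 and 20.8 CPM in Sora-Treg replicates 1 to 3. Of the pair of CD8 markers, Cd8a fell, from 2.65 ± 0.137 to 1.62 ± 0.186 CPM (SD, n = 3), and Cd8b1 did not pass the test, and their summed level was 13.2 to 15.1 CPM in ctrl-Treg and 12.6 to 13.8 CPM in Sora-Treg libraries. The part of the T cell and CD8 markers in the results was not tested.

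Ribosomes are built in the nucleolus. RNA polymerase I transcribes a long precursor rRNA there. Small nucleolar ribonucleoproteins (snoRNPs) then modify it, the small subunit processome and later factors shape the small (40S) subunit, and a separate chain of factors shapes the large (60S) subunit. T cells that leave rest enlarge their nucleoli to sustain growth, and the transcription factor MYC is known as an activator of many of these genes.

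Nearly the whole set was lower in Sora-Treg cells, by modest amounts. Of the 53 factors, 49 fell and 1 rose at an edgeR adjusted p under 0.05, where 29.9% of the 13463 genes tested fell and 29.7% rose (59.6% in either direction). Among the 6419 tested genes whose mean level lay within the range of the 53, 33.7% fell and 37.7% rose. The median log2 fold change of the 53 was -0.40, a fall to 0.756 of the control level, against a median of -0.0035 over all genes tested. None of the 53 passed the study's 2-fold limit, which 4.97% of tested genes passed as lower and 6.30% as higher. The changes were small in size and nearly all in one direction. The 3 Sora-Treg libraries lay below all 3 ctrl-Treg libraries for 48 of the 53 genes, a separation seen in 32.0% of genes tested. They lay above for 1, against 31.8% of genes tested, and the groups overlapped for 4 (Npm1, Nop10, Nob1 and Ddx10).

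**Figure D1:**
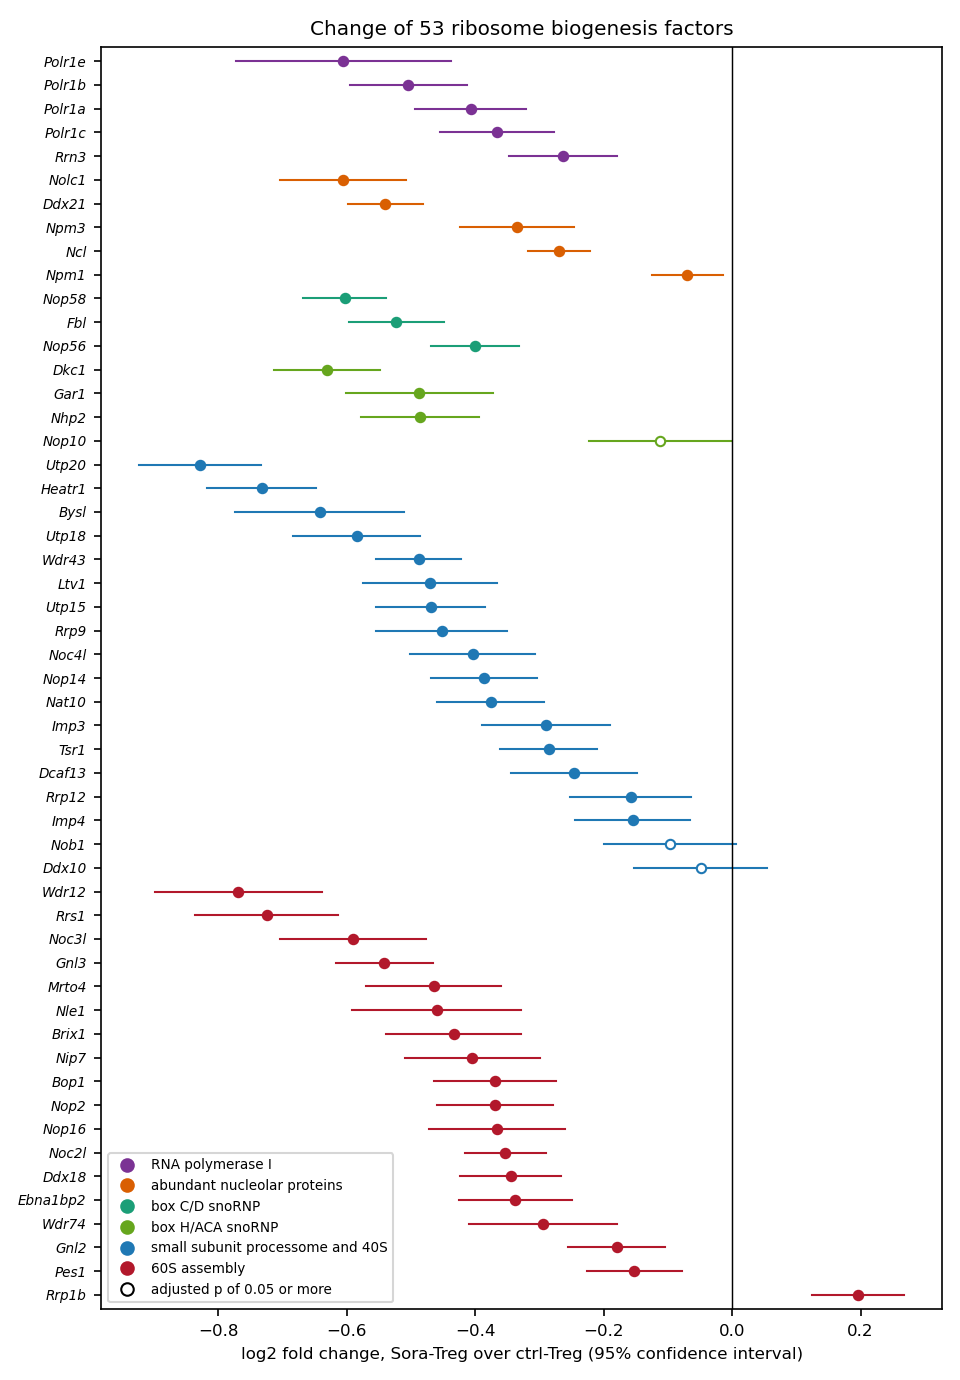
Log2 fold change of each of the 53 factors, Sora-Treg over ctrl-Treg, with its 95% confidence interval, by role. Filled points have an edgeR adjusted p under 0.05. All points but that of Rrp1b lie left of 0, from -0.83 for Utp20 to 0.20 for Rrp1b.

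The same was seen library by library. The 53 genes together took 0.894%, 0.890% and 0.908% of all counts in the controls and 0.675%, 0.683% and 0.681% after Sora. These shares are of raw counts, without TMM factors. With TMM factors the summed level was 8560, 8580 and 8738 CPM (ctrl-Treg) against 7013, 7122 and 7094 CPM (Sora-Treg), a smaller fall. The mean share of raw counts was 0.897% ± 0.00952 and 0.680% ± 0.00425 (SD, n = 3), to which Npm1 and Ncl contributed most. Taken gene by gene on the log2 CPM scale and relative to the control mean, the median factor stood at 0.0040, 0.00027 and -0.0014 in the controls and at -0.39, -0.44 and -0.39 after Sora. With control replicates 1 and 2 both left out, a choice made after the marker levels were seen, 48 of the 53 fell, 1 rose and the median log2 fold change was -0.39. The lone control library is then assumed to vary like the others.

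**Figure D2:**
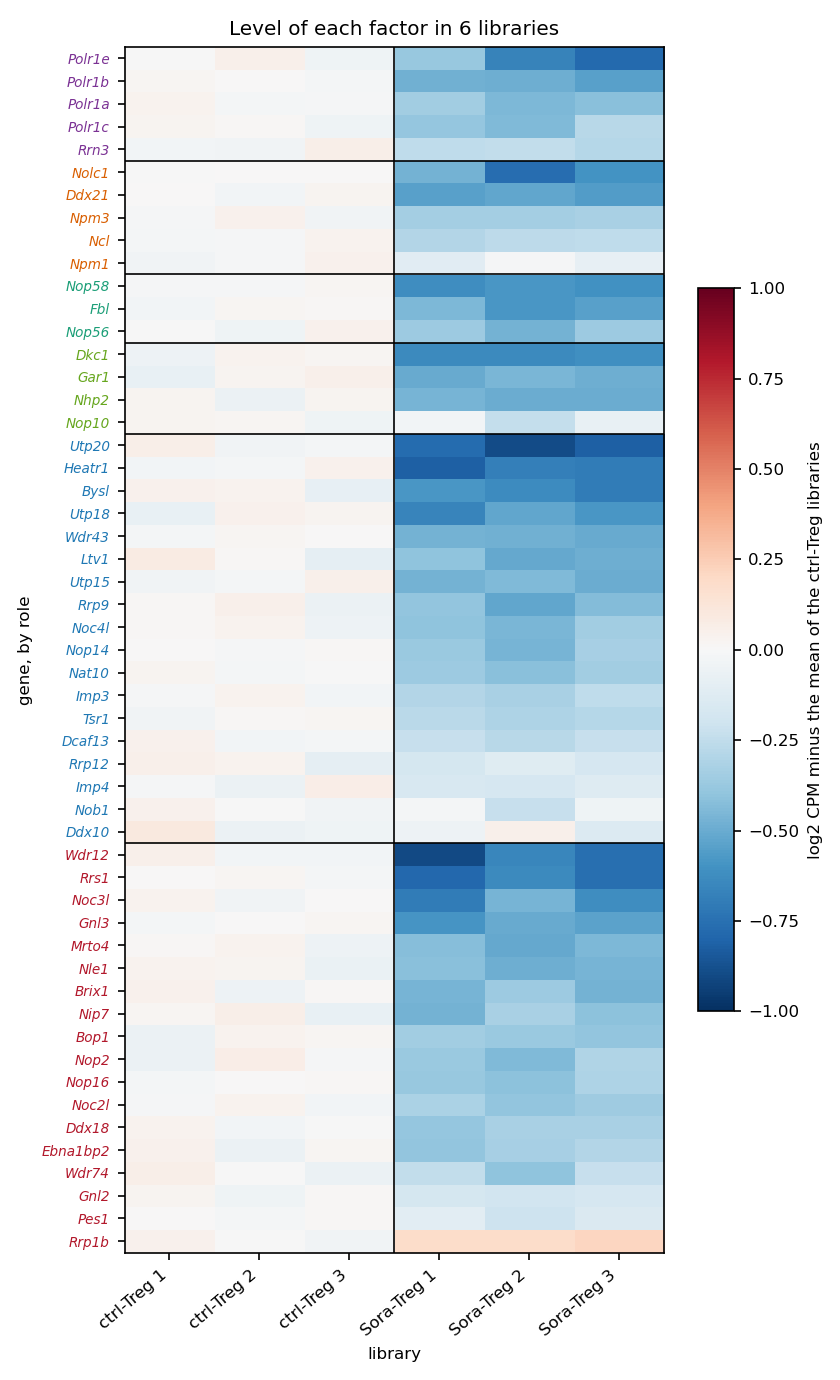
Level of each of the 53 factors (rows, grouped by role) in each of the 6 libraries (columns), as log2 CPM minus the mean of the ctrl-Treg libraries. The ctrl-Treg columns stay near 0 and the Sora-Treg columns are below it in all rows but a few, with Rrp1b above it in the 3 Sora-Treg columns.

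Since most members moved in one direction, their promoters were searched for 3 short motifs on both strands. RefSeq (GRCm38.p6) gave a window of 250 bases before to 50 bases after the start for 46 of the 53. The E-box CACGTG, which MYC with its partner MAX and other factors can bind, was in the windows of 10 of these 46 genes (21.7%), against 11.4% of tested genes with a window. The motif CCGGAAG, bound by ETS family factors, was in 18 (39.1%, against 19.8%), and CCAAT in 17 (37.0%, against 42.9%). In 4 genes an E-box lay before the start, and in 6, Utp20 among them, it lay only after the start. For the 4, 100 bases around the E-box nearest the start are shown, to let its setting be seen, read 5′ to 3′ on the strand of the gene, with CACGTG and CCGGAAG in capitals.
Utp18, chr11:93885767-93885866, minus strand: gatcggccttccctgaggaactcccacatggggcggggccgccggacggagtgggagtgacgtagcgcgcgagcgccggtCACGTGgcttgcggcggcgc
Nop2, chr6:125131776-125131875, plus strand: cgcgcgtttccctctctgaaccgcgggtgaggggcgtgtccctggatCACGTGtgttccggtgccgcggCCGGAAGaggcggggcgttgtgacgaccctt
Rrn3, chr16:13780599-13780698, plus strand: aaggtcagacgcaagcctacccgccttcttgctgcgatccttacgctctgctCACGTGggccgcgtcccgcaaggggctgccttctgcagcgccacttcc
Imp4, chr1:34439661-34439760, plus strand: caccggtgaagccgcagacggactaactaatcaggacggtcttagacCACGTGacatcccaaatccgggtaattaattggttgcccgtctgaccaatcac
The E-box begins 20 bases before the start in Utp18, 60 in Nop2, 48 in Rrn3 and 121 in Imp4. In Nop2 the stretch also holds CCGGAAG, downstream of the E-box. These 4 genes fell by 0.58, 0.37, 0.26 and 0.15 on the log2 scale. The median log2 fold change was -0.41 for the 10 genes with an E-box in the window and -0.41 for the 36 without, and all of the 10 and 32 of the 36 fell. Myc rose. It was at 319, 317 and 310.4 CPM (ctrl-Treg) against 404, 394 and 419 CPM (Sora-Treg), without overlap, a log2 fold change of 0.36 with SE 0.03 and an edgeR adjusted p of 1.87e-10.

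RNA polymerase I sets how much precursor rRNA is made. All 5 of its genes in the set fell, with a median log2 fold change of -0.41. In the whole set 92.5% of genes fell, and of all genes tested 29.9%, shares to set beside each role group below. Polr1e, a subunit that acts in initiation and elongation, fell most, at 30.2, 31.4 and 29.3 CPM (ctrl-Treg) against 23.3, 19.1 and 17.6 CPM (Sora-Treg), a log2 fold change of -0.61 with SE 0.08 and an edgeR adjusted p of 8.62e-07. None of its Sora-Treg libraries reached the lowest control. Polr1b and Polr1a, the pair of catalytic subunits, went from 62.3 ± 0.926 to 44 ± 0.986 CPM and from 80.7 ± 1.67 to 60.9 ± 2.28 CPM (SD, n = 3), log2 fold changes of -0.50 and -0.41. Polr1c, a subunit that RNA polymerase III also uses and the most abundant of the group by FPKM, was at 104, 103 and 98.8 CPM (ctrl-Treg) against 77.9, 75 and 84.1 CPM (Sora-Treg), a log2 fold change of -0.37 with SE 0.04 and an edgeR adjusted p of 1.14e-07. Rrn3 (chromosome 16, 13780699 to 13814841 of GRCm38.p6), the initiation factor that brings the polymerase to the promoter, moved least. It was at 80.6, 80.1 and 85.6 CPM (ctrl-Treg) against 68.8, 69.1 and 67.2 CPM (Sora-Treg), a log2 fold change of -0.26 with SE 0.04 and an edgeR adjusted p of 6.39e-06. Its window holds a pair of E-boxes, of which the one nearer the start is shown above.

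All 5 genes of abundant nucleolar proteins fell, with a median log2 fold change of -0.33, and the most abundant of them moved least. Npm1 (nucleophosmin, a histone and ribosome chaperone) was at 2108, 2141 and 2226 CPM (ctrl-Treg) against 1992, 2141 and 2036 CPM (Sora-Treg). The groups overlapped, since Sora-Treg replicate 2 stood level with control replicate 2. The change on the log2 scale was -0.070 ± 0.03 (SE), with an edgeR adjusted p of 0.0274, and this call was lost without control replicate 3 or without Sora-Treg replicate 1 or 3, with adjusted p-values of 0.157, 0.186 and 0.108. Npm1 has many processed pseudogenes, and how reads shared with such copies were counted is not given in the sources used here. Ncl (nucleolin, an RNA-binding protein of rRNA transcription and processing) fell from 1762 ± 36 to 1462 ± 24.1 CPM, or by 17%. Npm3, a relative of nucleophosmin, fell by 20.7%. Larger falls were seen for Ddx21, an RNA helicase of rRNA synthesis, which went from 335 ± 6.57 to 230.5 ± 2.81 CPM, and for Nolc1, a chaperone of snoRNPs. Nolc1 was at 156, 157 and 158 CPM (ctrl-Treg) against 113, 92.7 and 104 CPM (Sora-Treg), a log2 fold change of -0.61 with SE 0.05 and an edgeR adjusted p of 1.67e-10. Its controls were within 2 CPM of each other, and its Sora-Treg libraries were more spread but all below the lowest control.

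Box C/D snoRNPs place methyl groups on rRNA, and all 3 of their core proteins in the set fell. Snu13, another core protein, was among the further factors described below and also fell (log2 fold change -0.47, edgeR adjusted p = 1.63e-09). Fbl (fibrillarin, the methyltransferase) was at 171, 177 and 176 CPM (ctrl-Treg) against 128, 117 and 120.2 CPM (Sora-Treg), a log2 fold change of -0.52 with SE 0.04 and an edgeR adjusted p of 1.44e-11. Nop58, a core scaffold, was at 198, 199 and 203 CPM (ctrl-Treg) against 129.9, 133 and 131 CPM (Sora-Treg), a log2 fold change of -0.60 with SE 0.03 and an edgeR adjusted p of 1.03e-13. Its partner Nop56 was at 302, 294 and 312 CPM (ctrl-Treg) against 235, 218 and 235 CPM (Sora-Treg), a log2 fold change of -0.40 with SE 0.03 and an edgeR adjusted p of 4.03e-10. The groups did not overlap for any of these genes.

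Box H/ACA snoRNPs convert uridine to pseudouridine, and the same core proteins serve telomerase RNA. Of the 4 core genes, 3 fell. Dkc1 (dyskerin, the pseudouridine synthase) fell most, at 91.4, 96.9 and 96.2 CPM (ctrl-Treg) against 60.9, 61 and 61.8 CPM (Sora-Treg), a log2 fold change of -0.63 with SE 0.04 and an edgeR adjusted p of 3.41e-12. Gar1 and Nhp2 both had a log2 fold change of -0.49, with edgeR adjusted p-values of 7.76e-08 and 2.32e-09. Nop10, the smallest of the core proteins, was at 48.9, 48.8 and 46.7 CPM (ctrl-Treg) against 47.1, 40.7 and 45.8 CPM (Sora-Treg). Sora-Treg replicates 2 and 3 lay below the lowest control and replicate 1 lay among the controls, and its log2 fold change of -0.11 with SE 0.05 and an edgeR adjusted p of 0.0759 did not pass the test in the main analysis. It did pass with upper quartile scaling (-0.15, adjusted p = 0.0204), with libraries scaled by their totals (-0.23, adjusted p = 7.47e-04), with no filter beyond 1 count, without Sora-Treg replicate 1 and on FPKM.

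In the small subunit group, 16 of 18 genes fell and the median log2 fold change was -0.39. The largest change of the whole set was that of Utp20 (chromosome 10, 88746607 to 88826814), which encodes a very large scaffold protein of the processome. Utp20 was at 80.5, 75.3 and 76 CPM (ctrl-Treg) against 45.2, 41.5 and 43.9 CPM (Sora-Treg), a log2 fold change of -0.83 with SE 0.05 and an edgeR adjusted p of 3.48e-13, or 43.7% lower. Heatr1, Wdr43 and Utp15 belong to the complex that couples rRNA transcription to early processing. Heatr1 fell from 118 ± 3.16 to 71 ± 3.47 CPM, Wdr43 from 173 ± 2.35 to 123 ± 1.22 CPM and Utp15 from 81.4 ± 2.51 to 58.8 ± 1.13 CPM (SD, n = 3).

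Other factors that join early fell by intermediate amounts. Utp18, Rrp9 (a protein of the U3 snoRNP), Nop14 and its partner Noc4l, and Nat10 (which acetylates rRNA) had log2 fold changes of -0.58, -0.45, -0.39, -0.40 and -0.38. Imp3, which binds U3 and was the most abundant of the group by FPKM, was at 47.5, 49 and 46.9 CPM (ctrl-Treg) against 39.1, 38.2 and 40.1 CPM (Sora-Treg), a log2 fold change of -0.29 with SE 0.05 and an edgeR adjusted p of 1.79e-05. Imp4, its companion, and Dcaf13 fell less, by 0.15 and 0.25 on the log2 scale.

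Most factors of later 40S steps fell, by unequal amounts. Bysl and Ltv1 fell by 0.64 and 0.47 and the GTPase-like Tsr1 by 0.29 on the log2 scale. Rrp12, an export factor, fell by 0.16, and that call was lost with control replicates 1 and 2 both left out (-0.068, adjusted p = 0.447). Nob1, the nuclease that makes the final cut of the small subunit rRNA, was at 69, 67 and 65.4 CPM (ctrl-Treg) against 66.2, 57.2 and 65 CPM (Sora-Treg), a log2 fold change of -0.10 with SE 0.05 and an edgeR adjusted p of 0.0974 that did not pass. Sora-Treg replicates 2 and 3 lay below the lowest control and replicate 1 did not. The gene passed with upper quartile scaling (-0.13, adjusted p = 0.0239), with library totals (-0.21, adjusted p = 6.88e-04), with no filter beyond 1 count, without Sora-Treg replicate 1 and on FPKM. The helicase gene Ddx10 is also of the small subunit group but is not counted among the later factors. It was at 77.4, 69.3 and 70.2 CPM (ctrl-Treg) against 69.7, 74.7 and 65.6 CPM (Sora-Treg), with no separation of the groups. Its log2 fold change of -0.049 with SE 0.05 and an edgeR adjusted p of 0.417 turned to 0.0070 without control replicate 1. Ddx10 passed as lower with library totals (-0.16, edgeR adjusted p = 0.00644). It also passed by limma on log2(FPKM + 1) (-0.15, adjusted p = 0.0436) and log2(FPKM + 0.1) (-0.16, adjusted p = 0.0439), both filtered.

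In the 60S group, 17 of 18 genes fell and 1 rose, with a median log2 fold change of -0.37. Wdr12, Bop1 and Pes1 form one complex (PeBoW), and their mRNAs fell by unequal amounts. Wdr12 (chromosome 1, 60071361 to 60098500) was at 42.9, 40.8 and 40.9 CPM (ctrl-Treg) against 22.1, 26.4 and 24.6 CPM (Sora-Treg), a log2 fold change of -0.77 with SE 0.06 and an edgeR adjusted p of 3.11e-10. Bop1 fell from 56.4 ± 1.93 to 43.6 ± 0.668 CPM and Pes1 from 126 ± 1.45 to 114 ± 4.12 CPM (SD, n = 3). The 95% confidence intervals of the 3 log2 fold changes, -0.90 to -0.64 for Wdr12, -0.46 to -0.27 for Bop1 and -0.23 to -0.08 for Pes1, do not touch.

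Rrs1, which helps to bring the 5S rRNA particle into the large subunit, went from 46.3 ± 0.538 to 28 ± 1.55 CPM (log2 fold change -0.72). Noc3l, Gnl3 (nucleostemin, a nucleolar GTPase of proliferating cells), Mrto4, Nle1, Brix1 and Nip7 had log2 fold changes from -0.59 to -0.40. Noc2l, the most abundant of the 60S genes by FPKM, was at 269, 276 and 265 CPM (ctrl-Treg) against 217, 206 and 211 CPM (Sora-Treg), a log2 fold change of -0.35 with SE 0.03 and an edgeR adjusted p of 8.49e-10. Nop2 (an rRNA methyltransferase), Nop16, Ddx18, Ebna1bp2 and Wdr74 fell by 0.37 to 0.29 on the log2 scale, and the GTPase gene Gnl2 by 0.18. All of these are inside the 2-fold limit, and the groups did not overlap for any of them.

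Rrp1b, a nucleolar protein of 60S maturation that also acts in transcription, was the exception. It was at 118, 114 and 112 CPM (ctrl-Treg) against 130.2, 130.3 and 133 CPM (Sora-Treg), so that every Sora-Treg library was above every control, a log2 fold change of 0.20 with SE 0.03 and an edgeR adjusted p of 3.69e-05. On FPKM, which is not scaled for composition, its log2 fold change was 0.078 with an adjusted p of 0.0621.

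**Figure D3:**
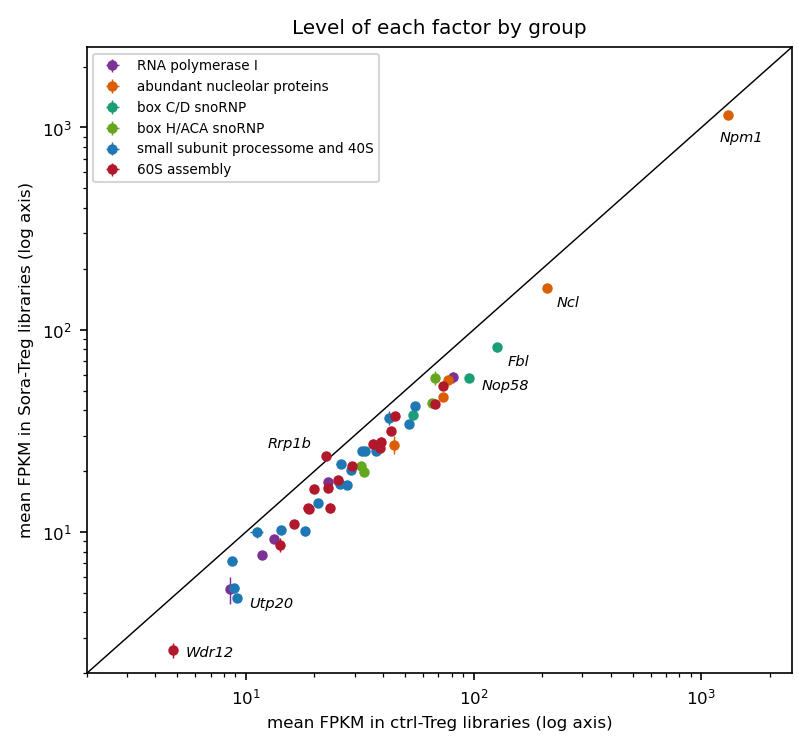
Mean FPKM of each of the 53 factors in ctrl-Treg (x) and Sora-Treg (y) libraries, both axes on a log scale, with SD over 3 libraries as bars and the line of equal levels. Levels run from Wdr12 to Npm1, and all points but that of Rrp1b lie below the line. FPKM is not scaled for composition, so falls look larger here than on TMM-scaled CPM.

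Levels between genes were compared per length, on the deposited FPKM values. FPKM is not scaled for composition, so falls between the groups look larger here than on TMM-scaled CPM. Npm1 was highest, with 1307 ± 34.9 FPKM in ctrl-Treg cells and 1149 ± 41.2 FPKM in Sora-Treg cells, followed by Ncl with 209 ± 4.09 FPKM in ctrl-Treg cells and 160.1 ± 2.39 FPKM in Sora-Treg cells and Fbl with 127 ± 1.82 FPKM in ctrl-Treg cells and 81.7 ± 3.84 FPKM in Sora-Treg cells (SD, n = 3). Nop58, Polr1c, Npm3, Noc2l, Nop10 and Ddx21 came next by the mean over all 6 libraries, and the order among these 6 genes was not the same in both groups. The median over the 53 was 26.4 FPKM. Wdr12 was lowest, with 4.79 ± 0.155 FPKM in ctrl-Treg cells and 2.6 ± 0.225 FPKM in Sora-Treg cells. Its FPKM rests on an implied length of 9014 bases, against 1718 for Npm1. Implied lengths were also long for Ncl (8770 bases) and Nop56 (5807 bases). By CPM, Ncl was much nearer to Npm1, at 1762 against 2158 CPM in ctrl-Treg cells. Ranks by FPKM, here and within the role groups, therefore depend on the annotation used.

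A further 105 factors of the pathway were examined in the same way. They were listed by role, with earlier results of these data already known. All were tested, and 75 fell (71.4%) and 8 rose (7.62%), where 29.9% of all genes tested fell and 29.7% rose. The median log2 fold change was -0.27, against -0.0035 over all genes tested. With control replicates 1 and 2 both left out, 64 fell and 6 rose. None was past 2-fold with an adjusted p under 0.05 in the main analysis. The log2 fold change of Shq1 went beyond that limit without Sora-Treg replicate 3 (-1.04) and with library totals (-1.05). It was -0.69 with control replicates 1 and 2 both left out. The largest falls were those of Shq1, an assembly factor of H/ACA snoRNPs, at 10.0, 10.3 and 8.05 CPM (ctrl-Treg) against 4.75, 4.45 and 5.67 CPM (Sora-Treg), of Rrp15, a nucleolar 60S factor, from 23.8 ± 1.17 to 13.1 ± 0.853 CPM, and of Mdn1, a giant ATPase that strips factors from the 60S precursor, from 258 ± 1.77 to 142 ± 5.25 CPM (SD, n = 3). Their log2 fold changes were -0.93, -0.87 and -0.86. The largest rises were those of Nop53, Riok3 and Riok1, at 0.27, 0.23 and 0.23. Nop53 brings the exosome to the 60S precursor, and the pair of Riok genes encode kinases of late 40S maturation. The call of Riok1 was lost with library totals (0.11, adjusted p = 0.0597) and on unfiltered FPKM values by limma (0.10, adjusted p = 0.0582).

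Grouped after their values were seen, the 9 exosome genes, whose products trim rRNA, held 7 that fell and none that rose. The 10 remaining genes of RNA polymerase I and its initiation and termination factors held 3 that fell, 2 that rose and 5 that did not pass. Of all genes tested, 29.9% fell and 29.7% rose. Polr1d, which pairs with Polr1c in both RNA polymerase I and III, was at 112, 96.1 and 116 CPM (ctrl-Treg) against 127, 124 and 124 CPM (Sora-Treg), a log2 fold change of 0.21 with SE 0.05 and an edgeR adjusted p of 0.00104, while Polr1c fell. That call was lost with library totals (0.090, adjusted p = 0.116), on FPKM, and with control replicates 1 and 2 both left out (0.10, adjusted p = 0.149). Ubtf, which opens ribosomal DNA for transcription, changed by -0.095 ± 0.03 (SE) on the log2 scale, with an edgeR adjusted p of 0.00999, lost without control replicate 1 (-0.082, adjusted p = 0.0606) and with control replicates 1 and 2 both left out.

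**Figure D4:**
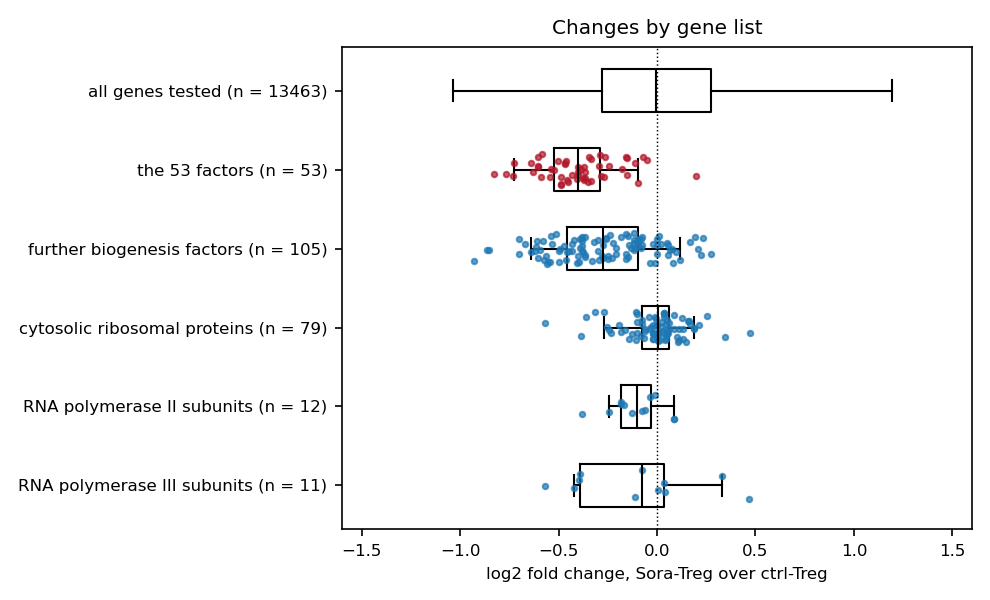
Log2 fold change of genes by list, with box (quartiles and median) and whiskers (5th to 95th percentile), and a point for each gene of the lists. The medians are -0.40 for the 53 factors and -0.27 for the 105 further factors, and lie nearer to 0 for the other lists.

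The products that these factors assemble were set beside them. Of 79 cytosolic ribosomal protein genes, 23 rose and 24 fell, close to the shares over all genes tested, and their median log2 fold change was 0.0052. With libraries scaled by their totals, 7 rose and 59 fell and this median was -0.11, while that of all genes tested was -0.12. On that scaling the median of the 53 factors was -0.52, so they stood about as far below all genes as before. As a share of all raw counts, without TMM factors, the ribosomal protein genes went from 13.8% ± 0.0759 to 12.8% ± 0.149 (SD, n = 3). Of 12 genes named for RNA polymerase II, 3 fell (25%) and 1 rose (8.33%), with a median of -0.10. Over all genes tested, 29.9% fell and 29.7% rose. The RNA polymerase II list includes subunits that RNA polymerase I also uses. Of these, Polr2f and Polr2h fell (log2 fold changes -0.18 and -0.38). Polr2e, Polr2k and Polr2l, also shared, did not pass the test (-0.036, -0.24 and -0.18). Of 11 genes of RNA polymerase III, 4 fell (36.4%) and 2 rose (18.2%), with a median of -0.076. The RNA polymerase II median was -0.056 without Sora-Treg replicate 2, and the RNA polymerase III median was -0.013 without Sora-Treg replicate 1 and -0.035 without control replicate 2. With library totals both were lower, at -0.22 and -0.19. These are counts and medians, and no difference between lists was tested.

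Many snoRNAs are cut from introns of genes that take part in ribosome building. In GENCODE M21, 7 of the 53 genes (13.2%) contained a snoRNA gene on their own strand, against 1.70% of the tested genes that could be matched. The 7 were Ncl, Nop56, Nop58, Dkc1, Wdr43, Tsr1 and Gnl3. All 7 fell, with log2 fold changes from -0.63 to -0.27, where 92.5% of the 53 genes and 29.9% of all genes tested fell. The snoRNAs themselves were not analysed here. In Ncl, Nop56, Nop58 and Gnl3, snoRNA genes also share annotated exonic bases with the member on the same strand. An example is Snora75, with 133 bases in Ncl. How reads from such bases were counted is not given in the sources used here.

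In GENCODE M21, 20 of the 53 genes share exonic bases, at least 5, with a gene on the opposite strand, and the treatment of strand in counting is not given in the sources used here. Bysl shares 361 bases with Ccnd3, which had at least 10556 counts per library and rose (log2 fold change 0.63), while Bysl fell. Tsr1 shares 1240 bases with Srr, which had at most 638 counts against at least 2723 for Tsr1. Noc2l shares 598 bases with Samd11, with at most 215 counts against at least 6565. Heatr1 shares 155 bases with Lgals8, which had 944 to 1426 counts against at least 2035. Lgals8 fell, as Heatr1 did (log2 fold change -0.16, edgeR adjusted p = 0.0230). Shorter stretches are shared by Bop1 with Mroh1 (50 bases, 1596 to 2653 counts, against at least 1344 for Bop1) and by Dkc1 with Mpp1 (45 bases, 1430 to 2004 counts, against at least 1847 for Dkc1). Mroh1 and Mpp1 rose, by 0.53 and 0.35 on the log2 scale, while Bop1 and Dkc1 fell. Gnl3 shares 15 bases with Pbrm1 (2822 to 4320 counts, against at least 2528 for Gnl3), which did not pass the test (-0.074). Values of members that share exonic bases are uncertain to that extent.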

How the data were processed

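The deposited files held, for 6 libraries and 22939 gene symbols, raw counts and FPKM values made by the authors. The methods of the study name Bowtie2, GRCm38 and an expectation-maximization algorithm for FPKM, whereas the submitters' processing notes list fastp, HISAT2, HTSeq and GRCm39. Annotation and strand are not given in the sources used here, and the files hold no coordinates. Each deposited FPKM value equalled the count divided by one length per gene and the library total (largest relative difference 1.64e-06), so FPKM was no separate measurement.

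Groups and replicate numbers came from sample titles. Counts were tested with edgeR 4.0.16 in R 4.3.3 (quasi-likelihood test, TMM scaling, filterByExpr, no covariate, Benjamini-Hochberg adjustment over 13463 genes). SE is the value implied by F, and its confidence intervals are at 95%. With 3 against 3 libraries the smallest p that exact permutation of one gene's values allows is 0.1. Scripts were checked on simulated counts. Within-group pairs of libraries differed by more than sampling noise (chi-square per degree of freedom 3.48 to 6.23).

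The members, role groups and lists were chosen with earlier results of these data known. A list of B cell markers is not reported here. Every member is named. Values in all 6 libraries are given, per role, for the member with the highest FPKM and those with the lowest and highest log2 fold change, and for a few others chosen after their values were seen. Of the further factors, the 3 lowest and 3 highest among those that passed are named, with Polr1d, Ubtf and Snu13 chosen after their values were seen. Promoters were printed for up to 4 members with an E-box before the start, by size of change. Alternatives were RLE, upper quartile and library-total scaling, looser or CPM-based filters (any library with 1 count, or 3 libraries with 1 CPM), DESeq2 1.42.0, robust fitting, a replicate block, each library left out, and limma 3.58.1 on log2(FPKM + 1) and log2(FPKM + 0.1), keeping genes with 1 FPKM in 3 libraries, or all genes.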

Additional observations from a re-analysis of the deposited data

How the results depend on the processing

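Of 954 values of single members under 18 alternatives, 929 kept direction and call, 7 lost the call, 17 gained it and 1 turned (Ddx10, from -0.097 to 0.0070 over the sets with a library dropped, the latter without control replicate 1). The 7 lost calls were those of Npm1, Rrp12 and Rrp1b given above, and 47 of the 53 members had no change under any alternative. The number of members that fell ranged from 48 to 52 (48 to 50 when single libraries were dropped), and no member passed 2-fold under any alternative. The number that rose was 0 with limma on FPKM in all 3 forms, where Rrp1b did not pass. The median log2 fold change of members was -0.44 with upper quartile scaling, -0.52 with library totals, -0.49 on log2(FPKM + 1) with or without a filter and -0.52 on log2(FPKM + 0.1). Dropping single libraries gave -0.41 to -0.38 for members, 68 to 75 falling and 7 to 8 rising further factors, and 1 rising member. Library totals and FPKM carry no composition factor, and the median of all genes tested was -0.12 with library totals, -0.10 on log2(FPKM + 1), -0.12 on log2(FPKM + 0.1) and -0.0070 on log2(FPKM + 1) without a filter. Of the further factors, 2 rose with library totals, 3 on log2(FPKM + 1) and on log2(FPKM + 0.1), and 2 on FPKM without a filter. Same-numbered libraries showed no pairing (correlations of deviations -0.044, 0.059 and 0.030), and not every library correlated best with its own number. With the replicate block, 49 members fell and 1 rose, with a median of -0.40. At 3 libraries per group, changes as small as those of Nop10, Nob1, Ddx10 and Npm1 lay near the threshold or short of it.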

Other observations

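Across the 53 factors, level and change were weakly related. Spearman's rho between mean FPKM and log2 fold change was 0.28 over 53 genes, all measured in the same 6 libraries, and is given as a description. By size, 9 genes had a log2 fold change at or under -0.60, 18 lay above that and up to -0.40, 17 above that and up to -0.20, 8 between -0.20 and 0, and 1 was above 0. For the ETS motif CCGGAAG, 17 of 18 genes with it in the promoter window fell, with a median log2 fold change of -0.42, and 25 of 28 without it fell, with a median of -0.41.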
